A study of Mus musculus with 8 samples.

Results

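The AP-1 family of transcription factors was followed by RNA-seq in NMuMG cells, an epithelial line from normal murine mammary gland, with and without a short exposure to TGF-β1. The family was taken as 9 genes by symbol: the Jun genes (Jun, Junb and Jund), the Fos genes (Fos, Fosb, Fosl1 and Fosl2), Atf3 and Maff. All 9 had a row among the 37310 genes of the deposited count table, and all 9 passed the filter on low counts together with the 13028 genes tested. Fosb reached the count level of the filter in only 3 libraries, all treated: both of the knockout, where it was highest, and replicate 1 of the control.

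The series held 8 libraries in 4 groups of 2: control cells left untreated, control cells given 10 ng/mL TGFβ1 for 2 hours, KO cells left untreated, and KO cells given 10 ng/mL TGFβ1 for 2 hours. All cells were of the same line and were grown in serum and insulin. KO marks a CRISPR/Cas9 deletion at Lnc-Nr6a1, a long noncoding RNA that hosts miR-181 genes. The deletion was carried by selected clones, and how many clones were sequenced is not given in the sources used here, so an effect of the deletion and of a clone cannot be told apart. The treated cells were washed with phosphate-buffered saline before TGF-β1 was added. Whether untreated cells were washed is not stated, so wash and ligand cannot be told apart. The study's methods call the 2 libraries of a group biological replicates, without saying whether they were separate cultures, clones or days, and p-values measure only the spread between these libraries.

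Library totals ran from 4297832 counts (KO replicate 1) to 13574397 (KO with TGF-β, replicate 2), and both treated groups were deeper than both untreated groups. Lnc-Nr6a1 (Gm13507) had 3 and 14 counts in control cells, 25 and 35 in treated control cells, 11 and 7 in KO cells, and 0 and 0 in treated KO cells. These counts did not separate the untreated libraries by label, and "KO" below means the libraries labelled KO. Epithelial markers summed to between 5865 and 10920 CPM, which stands here for counts after TMM scaling of the libraries, carried by Krt8, Krt18, Krt19 and Cdh1. Cldn7 was listed at 0 in all 8 libraries, and Epcam had 2 counts in 1 treated control library and 0 in the others. Markers of fibroblasts, leukocytes, endothelial cells and adipocytes summed to at most 4.72, 5.31, 0.846 and 0.22 CPM in any library. In such bulk RNA, fewer expressing cells and less RNA per cell cannot be told apart.

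AP-1 is a dimer of basic leucine zipper (bZIP) proteins that binds the short DNA elements TGANTCA and TGACNTCA. Jun proteins pair with each other or with Fos proteins, whereas Fos proteins need a Jun partner. Many of these genes are immediate early genes, transcribed within minutes when MAP kinases activate factors already bound at their promoters, and AP-1 then works beside Smad proteins at a number of TGF-β target genes. Atf3 is a stress-inducible bZIP factor that can pair with Jun proteins, and Maff is a small Maf protein, which lacks a transactivation domain.

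Before treatment, Junb was the most abundant Jun transcript and Fosl1 the most abundant Fos transcript per length. Levels between genes are compared here as CPM per kb of exon. In untreated control cells Junb stood at 77.6 ± 2.69, Jund at 23.5 ± 5.34 and Jun at 5.50 ± 2.10 CPM per kb (SD, n = 2). In untreated KO cells the same 3 genes stood at 87.0 ± 6.27, 38.3 ± 5.30 and 3.68 ± 1.39 CPM per kb. The order Junb, Jund, Jun held in each of the 4 untreated libraries, with no overlap between neighbours.

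Among Fos genes, Fosl1, which encodes Fra-1, stood at 29.5 ± 0.456 and Fosl2, which encodes Fra-2, at 11.6 ± 1.06 CPM per kb in untreated control cells. Fos, the founding immediate early gene, was at 1.44 ± 0.231 and Fosb at 0.0805 ± 0.0679 CPM per kb. Fosl1 made up between 67.7% and 72.2% of the Fos family in the 4 untreated libraries, and Fosl2 between 24.1% and 28.5%. Atf3 stood at 7.85 ± 0.0225 and Maff at 8.37 ± 1.26 CPM per kb in untreated control cells, values that do not differ beyond their spread.

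**Figure D1:**
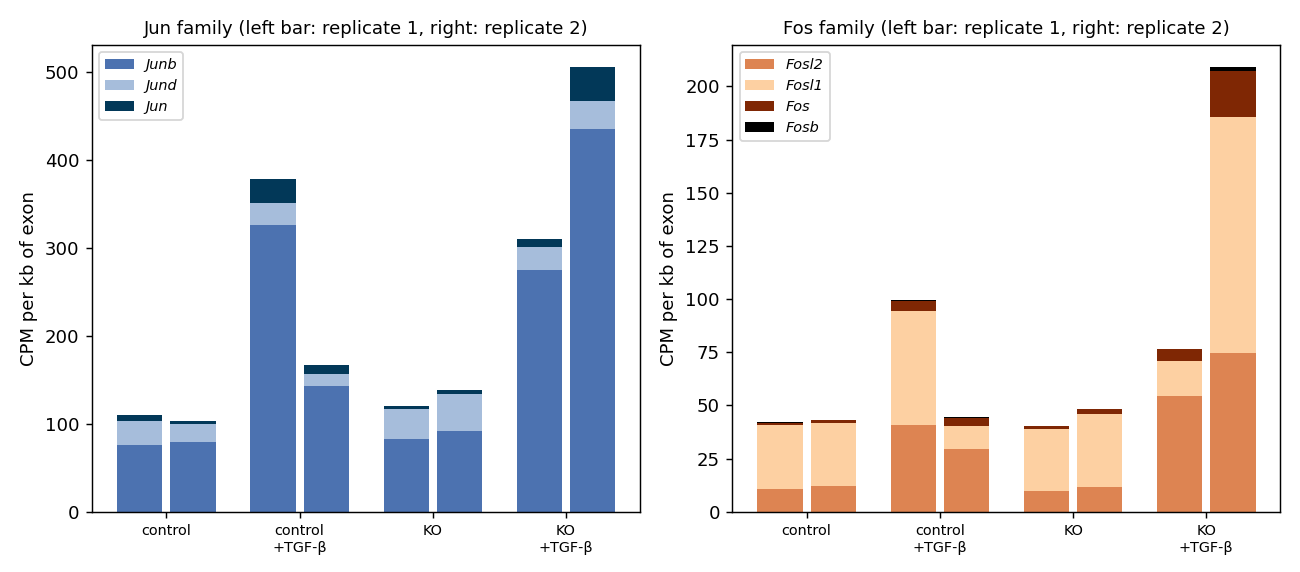
Summed level of the Jun genes (left) and Fos genes (right) in each library, in CPM per kb of exon, stacked by gene; each pair of bars is replicate 1 and replicate 2 of a group. Junb makes up most of the Jun family in every library, while Fosl2 takes a larger share of the Fos family in all 4 treated libraries than in any untreated one.

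With 2 h of TGF-β, Fosl2 and Junb rose in both genotypes, and they were the 2 members called in control cells. A gene was called when its Benjamini-Hochberg adjusted p, over all 13028 genes, was below 0.05 and its log2 fold change passed 0.5. In control cells 2 of 9 members were called higher and none lower, where 4.69% of all tested genes were called higher and 4.47% lower. In KO cells 4 of 9 were called higher (Fosl2, Junb, Fos and Jun) and none lower, where 4.25% of all tested genes were called higher and 2.57% lower. Over the members other than Fosb, log2 fold changes ran from -0.26 (Jund) to 1.91 (Maff) in control cells. In KO cells they ran from -0.43 (Jund) to 2.87 (Fos). The medians over all genes were 0.02 and 0.00. By position alone, both treated libraries lay above both untreated libraries in control cells for Fos, Fosl2, Jun, Junb and Atf3. These are 5 of the 8 members other than Fosb (27.5% of all genes). In KO cells they did so for the same 5 of 8 (28.4% of all genes). Fosb lay higher in both genotypes too but is not counted, since only treated libraries brought it past the filter.

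**Figure D2:**
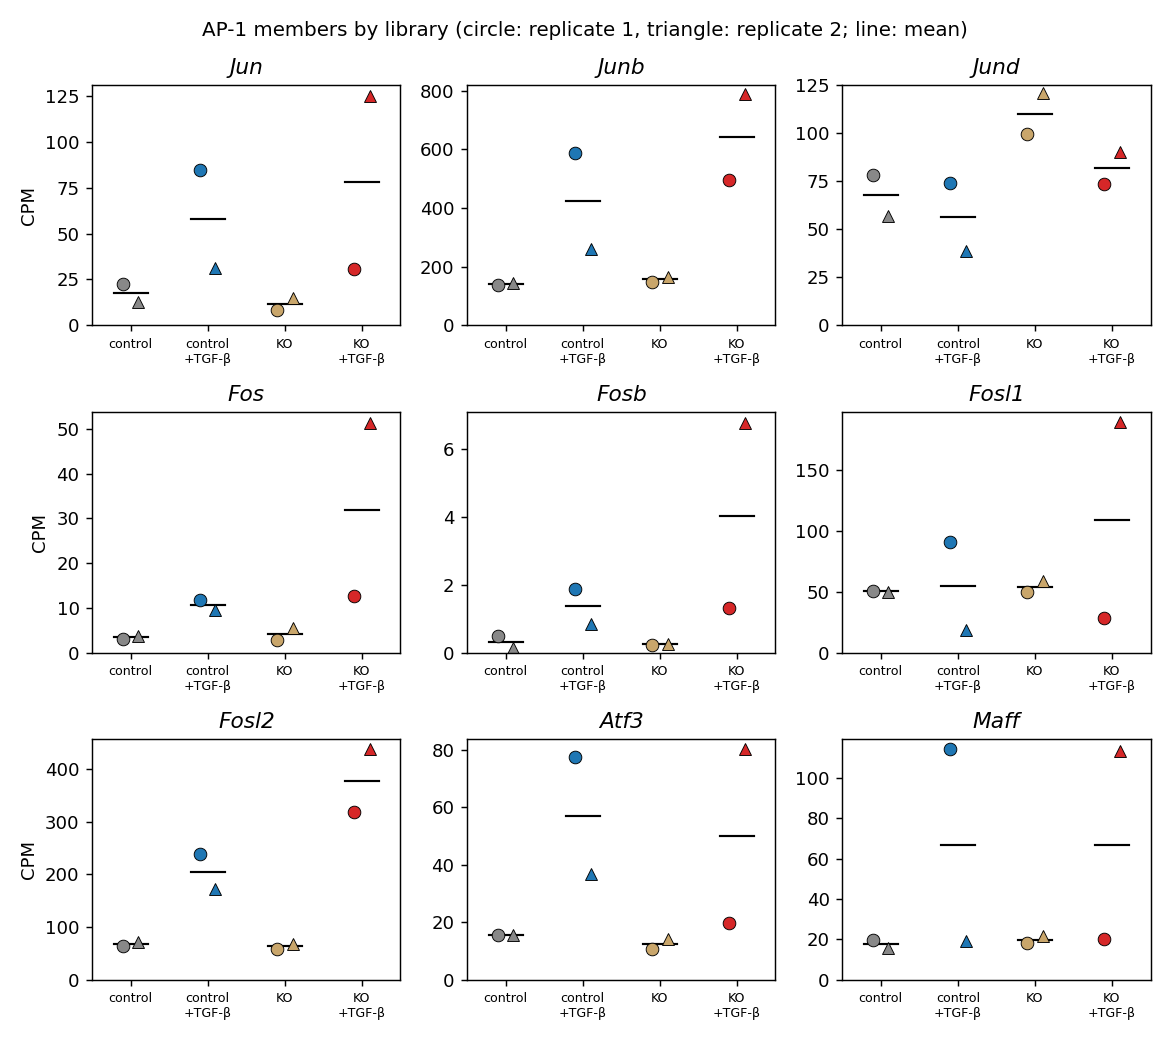
CPM of each AP-1 member in the 8 libraries, one panel per gene with its own axis from 0; circles are replicate 1, triangles replicate 2 and lines group means. Fosl2 and Junb lie higher in all 4 treated libraries, whereas Maff and Fosl1 lie high in 1 treated library of each genotype.

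Junb (chr8:87500811-87502617 in mm9, minus strand), which encodes a Jun protein with weaker transactivation than c-Jun, read 137 and 144 CPM in the untreated control libraries and 588 and 259 CPM in the treated ones. The KO libraries read 149 and 165 CPM untreated and 497 and 787 CPM treated. Treated and untreated libraries did not overlap in either genotype, although treated control replicate 1 lay far above replicate 2. The log2 fold change was 1.59 ± 0.34 (SE; edgeR quasi-likelihood test, adjusted p = 0.0234) in control cells and 2.03 ± 0.35 (adjusted p = 0.00994) in KO cells. Each call missed the threshold when either untreated library of its genotype was left out: in control cells the adjusted p was then 0.174 without replicate 1 and 0.119 without replicate 2, and in KO cells 0.111 and 0.101. Without treated control replicate 1 the log2 fold change in control cells was 0.88 ± 0.23 (adjusted p = 0.042).

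Jun (chr4:94715725-94718913 in mm9, minus strand), which encodes c-Jun, a strong activator among AP-1 proteins, read 22.3 and 12.8 CPM in untreated control cells and 84.6 and 31.2 CPM after TGF-β. In KO cells it read 8.59 and 14.9 CPM untreated and 30.9 and 125 CPM treated. The groups did not overlap, but within each treated group 1 library held most of the increase. The log2 fold change was 1.72 ± 0.65 in control cells (adjusted p = 0.127), which did not pass the test, and 2.70 ± 0.69 in KO cells (adjusted p = 0.048), which did. In KO cells the call was lost without untreated replicate 1 (adjusted p = 0.274), without untreated replicate 2 (0.207) and without treated replicate 2, when the log2 fold change was 1.38 (0.258). It was also absent with limma-voom (2.38, adjusted p = 0.176). Part of the Jun exon, 232 bases, is shared with BC042782 on the other strand, a gene with 22 counts in all 8 libraries together.

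Jund (chr8:73221638-73224515 in mm9, plus strand), the Jun gene usually expressed at a steady level, was the only member with a log2 fold change below 0 in both genotypes. It read 78.6 and 56.8 CPM in untreated control cells and 74.4 and 38.8 CPM in treated ones. Its KO libraries read 99.5 and 121 CPM untreated and 73.5 and 90.1 CPM treated, so that both treated KO libraries lay below both untreated ones, as they did for 28.3% of all genes. The log2 fold change was -0.26 ± 0.29 in control cells (adjusted p = 0.609) and -0.43 ± 0.29 in KO cells (adjusted p = 0.414), and neither passed the test. With Junb rising and Jund not, the share of Jund in the summed Jun family went from between 19.1% and 30.4% in the untreated libraries to between 6.19% and 8.24% in the treated ones.

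Fosl2 (chr5:32438845-32460204 in mm9, plus strand) rose in both genotypes. It read 63.3 and 72.1 CPM in untreated control cells and 239 and 172 CPM after TGF-β, and 58.1 and 68.4 CPM in untreated KO cells and 318 and 437 CPM after TGF-β. Every treated library lay above every untreated library of the series, and both treated KO libraries lay above both treated control libraries. The log2 fold change was 1.60 ± 0.21 in control cells (adjusted p = 0.00307) and 2.57 ± 0.22 in KO cells (adjusted p = 4.02e-04). Without untreated control replicate 1 the first of these missed the threshold (1.51 ± 0.29, adjusted p = 0.0537). The Fosl2 share of the Fos family, per length, rose from at most 28.5% in untreated libraries to between 35.7% and 70.7% in treated ones.

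Fos (chr12:86814840-86818223 in mm9, plus strand) read 3.01 and 3.78 CPM in untreated control cells and 11.8 and 9.62 CPM in treated ones. In KO cells it read 2.86 and 5.58 CPM untreated and 12.6 and 51.4 CPM treated. Treated KO replicate 2 stood apart from the other 3 treated libraries, which lay within 9.62 to 12.6 CPM. The log2 fold change was 1.66 ± 0.61 in control cells, which did not pass the test (adjusted p = 0.123), and 2.87 ± 0.61 in KO cells (adjusted p = 0.0248). The KO call was lost without untreated replicate 1 (adjusted p = 0.183), without untreated replicate 2 (0.132) and without treated replicate 2, when the log2 fold change was 1.54 (0.118). The KO call was also absent with limma-voom (2.55, adjusted p = 0.159) and in a fit of those 4 libraries alone (adjusted p = 0.0507). In control cells Fos was called by DESeq2 (adjusted p = 0.0232) and in a fit of the 4 control libraries alone (adjusted p = 0.0431).

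Fosb (chr7:19888070-19895394 in mm9, minus strand), a Fos gene usually almost silent in resting cells, was near the limit of detection before treatment. Its counts were 4 and 1 in untreated control cells, 20 and 8 in treated control cells, 1 and 2 in untreated KO cells, and 16 and 85 in treated KO cells. Pooled by group and scaled by depth, the ratio of treated to untreated was 4.59 (95% exact interval 1.75 to 15.2) in control cells and 16.3 (5.44 to 80.6) in KO cells, intervals that cover counting error only and not the spread between the pooled libraries. They are no test of a rise in either genotype, since only treated libraries brought Fosb past the filter. The fitted log2 fold changes of 2.13 ± 1.05 in control cells (adjusted p = 0.23) and 3.95 ± 1.08 in KO cells (adjusted p = 0.0603) did not pass the test. In KO cells the log2 fold change was 4.70 (adjusted p = 0.0136) without treated replicate 1 and 2.34 without treated replicate 2, and DESeq2 gave an adjusted p of 0.0173. None of these values supports a rise, because treated libraries alone, both of the KO and replicate 1 of the control, brought Fosb past the filter.

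Fosl1 (chr19:5447703-5455945 in mm9, plus strand) did not move in one direction. It read 51.0 and 49.9 CPM in untreated control cells, and after TGF-β 91.2 CPM in replicate 1 and 18.5 CPM in replicate 2. In KO cells it read 49.8 and 58.7 CPM untreated, and after TGF-β 28.7 CPM in replicate 1 and 189 CPM in replicate 2. In both genotypes 1 treated library lay above and the other below both untreated libraries. The log2 fold changes were 0.13 ± 0.79 in control cells (adjusted p = 0.939) and 1.00 ± 0.80 in KO cells (adjusted p = 0.5). Fosl1 shares 1162 of its 1707 exon bases with Ccdc85b on the opposite strand, and no source used here says whether counting used strand, so its level is uncertain. Ccdc85b itself had between 34 and 90 counts in any library, whereas Fosl1 ranged from 175 to 2384.

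Atf3 (chr1:192994175-193007219 in mm9, minus strand) read 15.5 and 15.6 CPM in untreated control cells and 77.7 and 36.7 CPM after TGF-β. Untreated KO cells had 10.6 and 14.1 CPM and treated ones 19.7 and 80.3 CPM. The groups did not overlap in either genotype, and the log2 fold changes were 1.88 ± 0.57 and 2.00 ± 0.59, but neither passed the test (adjusted p = 0.0717 and 0.0787). Leaving out the lower library of the treated pair brought Atf3 past the threshold, at 2.29 (adjusted p = 0.0459) without treated control replicate 2 and 2.69 (adjusted p = 0.00332) without treated KO replicate 1. Leaving out the higher library gave 1.23 (adjusted p = 0.199) without treated control replicate 1 and 0.67 (adjusted p = 0.482) without treated KO replicate 2.

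Maff (chr15:79177971-79189502 in mm9, plus strand) was high in 1 treated library of each genotype and not in the other. It read 19.6 and 15.9 CPM in untreated control cells, and after TGF-β 114 CPM in replicate 1 but 19.4 CPM in replicate 2. In KO cells it read 18.1 and 21.6 CPM untreated, and after TGF-β 20.4 CPM in replicate 1 but 113 CPM in replicate 2. The lower library of each treated pair lay within the range of its untreated group, and the higher libraries of the 2 genotypes were nearly equal. The log2 fold changes of 1.91 ± 0.84 in control cells (adjusted p = 0.18) and 1.74 ± 0.84 in KO cells (adjusted p = 0.257) did not pass the test, apart from control cells without treated replicate 2 (2.66, adjusted p = 0.0478). Without the higher treated library it was 0.12 (control) and 0.0377 (KO) on the log2 scale.

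**Figure D3:**
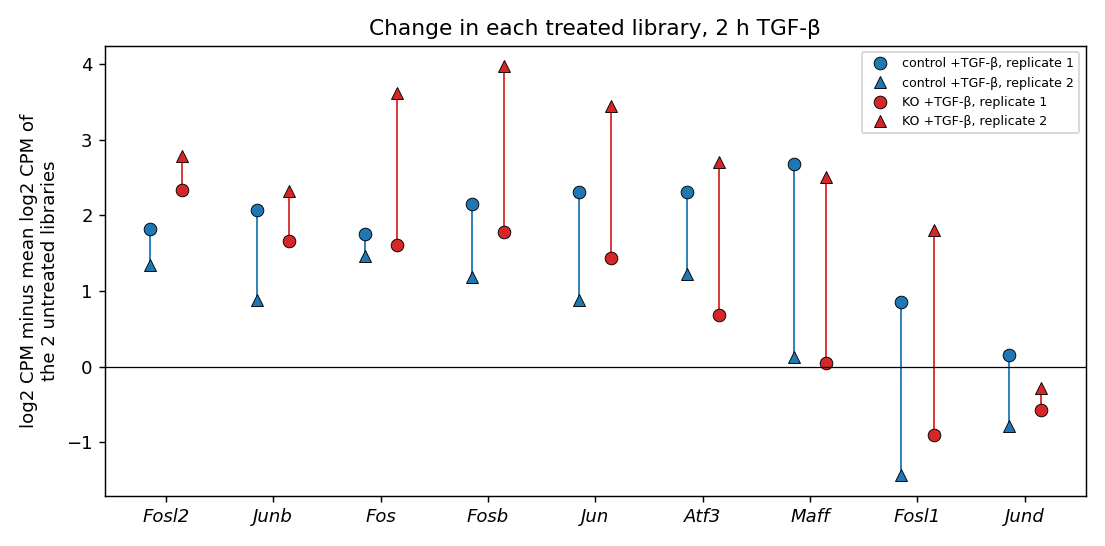
Change of each member in each treated library, as log2 CPM minus the mean log2 CPM of the 2 untreated libraries of the same genotype; blue is control and red KO, circles are replicate 1 and triangles replicate 2, joined within a genotype. The 2 Fosl2 libraries of a genotype lie within 0.48 of each other and all above 0, whereas Fosl1 crosses 0 in both genotypes.

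Promoter sequences are shown for the members in which the search below found a match. RefSeq windows (GRCm38.p6) were found for 8 of the 9 members, in 10 windows, 3 of them at Maff, and the 250 bases before each start were searched on both strands for 4 motifs. The first was TGACNTCA, the cyclic AMP response element and its relatives. The next was its shorter form TGACG, which the first contains when its N stands for a guanine. The others were the AP-1 element TGANTCA and the serum-response CArG box. A match was found at 6 of the 8 members, and capitals mark it in the sequences below, which read 5′ to 3′ on the strand of the gene.
Fos, chr12:85473802-85473850, plus strand: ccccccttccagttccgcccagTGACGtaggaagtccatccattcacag
Fosb, chr7:19310079-19310127, minus strand: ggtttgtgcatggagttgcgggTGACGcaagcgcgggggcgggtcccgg
Jun, chr4:95052238-95052289, minus strand: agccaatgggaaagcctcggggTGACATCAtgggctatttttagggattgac
Junb, chr8:84978828-84978876, minus strand: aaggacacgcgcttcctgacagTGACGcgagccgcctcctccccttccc
Atf3, chr1:191183334-191183362, minus strand: ctggaagctattaatagcattaCGTCAgc
Maff, chr15:79347469-79347519, plus strand: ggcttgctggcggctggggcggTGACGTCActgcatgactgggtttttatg
The matches begin 66 (Fos), 60 (Fosb), 45 (Jun), 106 (Junb), 7 (Atf3) and 29 (Maff) bases before the start. Fos has another TGACG at 129 bases, and the last of the Maff windows has TGACATCA at 45 bases and TGACG, on the other strand, at 122 bases. TGACNTCA is present in 7.49% and TGACG in 17.8% of all 32851 windows. These shares are per window and motif, and the share of genes with either motif was not taken. Neither TGANTCA (6.75% of windows) nor a CArG box (1.47%) was found in the searched bases of any member. Elements farther than 250 bases before the start would be missed. The windows of Fosl2 and Jund held none of the 4 motifs. These letters describe the sequence and do not show binding.

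The treated replicates disagreed over AP-1 genes more than over most genes. A log2 difference above 1 between replicates was seen for 5 of 9 members in treated control cells, against 9.59% of all tested genes, and for 6 of 9 in treated KO cells, against 4.24%. The 6 were Fos, Fosl1, Jun, Atf3, Maff and Fosb. Fosb is included in the numbers of this paragraph but gives no support, since only treated libraries brought it past the filter. In the untreated groups 1 member (Fosb, at 4 and 1 counts) and 0 members differed that much. The median absolute log2 difference over the members was 1.08 in treated control and 2.01 in treated KO cells, beside 0.33 and 0.22 over all genes. For all 9 members replicate 1 was the higher one in treated control cells and replicate 2 in treated KO cells, a pattern held by 34.4% of all tested genes. Maff differed by 2.55 and -2.46 on the log2 scale (replicate 1 minus replicate 2, in control and KO), Fosl1 by 2.29 and -2.71, Jun by 1.43 and -2.01, and Atf3 by 1.08 and -2.01. Fosl2 differed by 0.48 and -0.46, and Fos by 0.29 and -2.01.

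Genes known as AP-1 targets split the same way. Of 21 tested genes of a list of 24 such targets, 19 were higher in treated control replicate 1 and treated KO replicate 2, and for 8 of them both differences passed 1, against 1.04% of all tested genes. Among untreated libraries a difference above 1 was seen for 2 (control) and 3 (KO) of the 21, where 3.96% and 6.61% of all genes had one. Lif, an interleukin-6 family cytokine, read 213 and 23.3 CPM in treated control cells and 22.8 and 218 CPM in treated KO cells, beside 19.4 to 25.0 CPM in the 4 untreated libraries. Ptgs2, the inducible cyclooxygenase, read 670 and 107 CPM in treated control cells and 28.8 and 610 CPM in treated KO cells. Untreated, it read 73.6 and 70.1 CPM in control and 17.8 and 17.8 CPM in KO cells. Mmp10, a matrix metalloproteinase, read 55.9 and 3.70 CPM in treated control cells and 1.47 and 84.2 CPM in treated KO cells. Untreated, it read 2.17 and 2.56 CPM in control cells, and in KO cells 0 and 2.66 CPM, so its replicates split there too. These 3 genes were chosen after their values were seen. What separates the 2 treated libraries of a genotype is not given by the labels and was not tested.

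**Figure D4:**
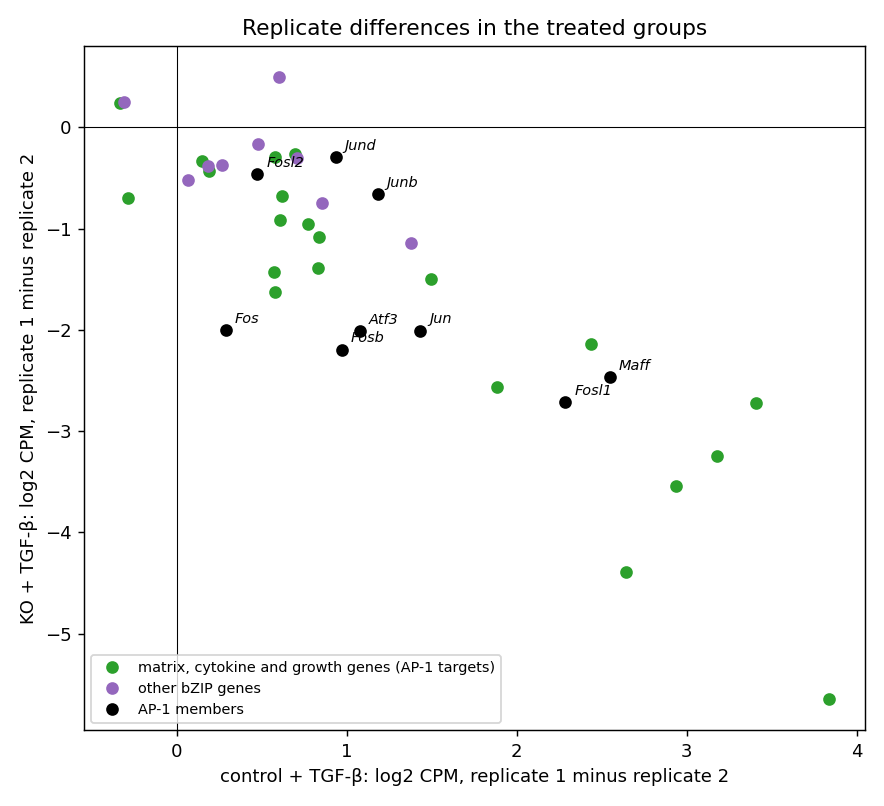
Difference in log2 CPM between replicate 1 and replicate 2 of the treated control group (horizontal) and of the treated KO group (vertical) for the AP-1 members (black, named), their known targets (green) and other bZIP genes (purple). All 9 members fall in the lower right quadrant, with Maff and Fosl1 farthest out among them.

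Without TGF-β, no member passed the test between KO and control cells. None of 9 was called by edgeR, DESeq2 or limma-voom, where edgeR called 1.83% of all tested genes in either direction, and 1 member (Jund) was below an unadjusted p of 0.05, where 14.9% of all genes were. Jund was higher in KO cells by 0.71 ± 0.29 on the log2 scale (adjusted p = 0.289). Both KO libraries lay above both control libraries for Jund and Junb (26.8% of all genes) and below them for Atf3 (25.2% of all genes). For Junb the difference was small, at 0.17 ± 0.34 (adjusted p = 0.863). For Atf3 it was -0.32 ± 0.61 (adjusted p = 0.853), and for Jun -0.55 ± 0.70 (adjusted p = 0.77). In a fit of these 4 libraries alone Jund was called, at 0.70 ± 0.17 (adjusted p = 0.0253). That fit called 797 of 13028 genes, against 238 in the main fit.

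After TGF-β, Fosl2 was higher in KO than in control cells. It was the 1 member of 9 called higher and none was called lower, where 8.47% of all tested genes were called higher and 6.57% lower. That share is near the one over all genes, so the call is no result about the family. The Fosl2 difference was 0.88 ± 0.21 (adjusted p = 0.0229). It lost its call without treated control replicate 2 (0.67 ± 0.22, adjusted p = 0.0839), without treated KO replicate 2 (0.64 ± 0.22, adjusted p = 0.139) and in a fit of the 4 treated libraries alone (adjusted p = 0.096), keeping its sign. Fos and Fosl2 were the 2 members for which both KO libraries lay above both control libraries, as they did for 28.5% of all genes. Fos was higher by 1.58 ± 0.54, which edgeR did not call (adjusted p = 0.0794) and DESeq2 did (adjusted p = 0.0149). Treated KO replicate 2 set its size: the difference was 0.24 (adjusted p = 0.796) without it and 2.27 (adjusted p = 0.00712) without treated KO replicate 1. The other differences did not pass the test, at 1.55 ± 0.77 for Fosb (adjusted p = 0.201), 0.99 ± 0.78 for Fosl1 (0.424), 0.60 ± 0.33 for Junb (0.252), 0.53 ± 0.29 for Jund (0.239), 0.43 ± 0.61 for Jun (0.676) and -0.20 ± 0.53 for Atf3 (0.837). The Fosb value gives no support, since only treated libraries brought Fosb past the filter. Without treated control replicate 1, Junb (1.30, adjusted p = 0.00984) and Jund (1.07, adjusted p = 0.0154) were called, and without treated control replicate 2 they stood at 0.14 and 0.15. Maff had group means of 66.7 ± 67.0 and 66.9 ± 65.8 CPM (SD, n = 2) in treated control and KO cells. This comparison shares its libraries with both comparisons of treated and untreated cells.

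The difference of the TGF-β responses themselves was tested as the interaction of genotype and treatment, without a threshold on the fold change. No member passed, and neither did any of the 13028 genes by edgeR (0% called), although 1134 genes (8.7%) had an unadjusted p below 0.05. DESeq2 called 30 genes and limma-voom 0, with no member among them. Fosl2 was the 1 member with an unadjusted p below 0.05. Its response was greater in KO cells by 0.97 ± 0.30 (adjusted p = 0.474). It was called when genes with low counts were kept in the fit (1.04, adjusted p = 0.00906), where 211 of 20463 genes were called. The other members' estimates ran from -0.18 ± 0.40 for Jund to 1.21 ± 0.87 for Fos. Fosb (1.82 ± 1.71) is set aside, since only treated libraries brought it past the filter.

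Other bZIP genes were called in both directions. Of 17 further AP-1-related and Maf-related bZIP genes 9 were tested, and in control cells given TGF-β 2 were called higher and 1 lower (4.69% and 4.47% of all genes), with a median log2 fold change of -0.15 beside 0.02 over all genes. Jdp2, which encodes a repressive dimerization partner of Jun proteins, rose by 1.10 ± 0.27 (adjusted p = 0.0343), and Bach1, a heme-regulated repressor that pairs with small Mafs, by 0.86 ± 0.18 (adjusted p = 0.0225). Maf fell by 1.36 on the log2 scale (adjusted p = 0.0171). In KO cells 1 was called higher, Bach1 (0.98 ± 0.18, adjusted p = 0.015), and 1 lower, Maf, which fell by 1.01 (adjusted p = 0.0489), where 4.25% and 2.57% of all genes were called, and the median was 0.19 beside 0.00. Between treated KO and treated control cells Nfe2l1, a stress-responsive bZIP factor, was 1 of 9 called higher (0.77 ± 0.20, adjusted p = 0.0319), a share near the 8.47% of all genes. Leaving out 1 library ended many of these calls while most log2 fold changes stayed near their size, with 0.72 to 0.96 for Bach1 in control cells and 0.79 to 1.17 in KO cells. Over all genes, the TGF-β calls went from 1194 to 139 without untreated control replicate 1 and from 889 to 136 without untreated KO replicate 1, but to 1479 without treated control replicate 1. In either genotype Bach1 and Maf were not called without untreated replicate 1 or 2, nor was Jdp2 in control cells. Bach1 in both genotypes, Jdp2 and, in KO cells, Maf were also not called without 1 of the treated libraries (control replicate 1, KO replicate 2), when Jdp2 stood at 0.70. Nfe2l1 was not called without either treated KO library or treated control replicate 2. In fits of the 4 libraries of the comparison alone Jdp2 (adjusted p = 0.0572), Bach1 in control cells (0.0503) and Nfe2l1 (0.096) were not called. None was called by edgeR between the untreated genotypes (1.83% of all genes) or in the interaction (0% of all genes). In these, 0 and 0 of the 9 had an unadjusted p below 0.05, where 14.9% and 8.7% of all genes had.

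Few transcripts of the MAP kinase cascade and of the factors it activates at AP-1 promoters were called, and in both directions. Of 27 genes 24 were tested. In control cells 2 were called higher and 1 lower, where 4.69% and 4.47% of all genes were, so the share called lower was near that of all genes. Elk3, a ternary complex factor that binds with Srf, rose by 0.79 ± 0.16 (adjusted p = 0.0207) and Map2k1, which encodes the ERK kinase MEK1, by 0.67 ± 0.17 (adjusted p = 0.0387), whereas Rps6ka1, an RSK kinase, fell by 0.71 (adjusted p = 0.0268). In KO cells 3 were called higher and none lower, where 4.25% and 2.57% of all genes were: Mef2a, a factor that acts at the Jun promoter (1.09 ± 0.15, adjusted p = 0.00327), Elk3 (0.94 ± 0.16, adjusted p = 0.0109) and Map2k1 (0.78 ± 0.17, adjusted p = 0.0267). The medians over the 24 genes were 0.12 and 0.18, beside 0.02 and 0.00 over all genes. Between treated KO and treated control cells the kinase genes Map2k7 (0.77 ± 0.22, adjusted p = 0.0411) and Mapk14, which encodes p38α (0.68 ± 0.15, adjusted p = 0.0178), were higher and Map2k6 was lower (-0.84 ± 0.20, adjusted p = 0.0231), where 8.47% of all genes were called higher and 6.57% lower. At 2 of 24 higher and 1 of 24 lower, these shares were no larger than those of all genes. Without untreated replicate 1 of the genotype none of these TGF-β calls held, and without untreated replicate 2 only Mef2a did. Without treated control replicate 1 Map2k1 was not called, without treated control replicate 2 Rps6ka1 was not, and without treated KO replicate 2 Elk3 and Map2k1 were not. Between the treated genotypes, Map2k7 was not called without control replicate 2 (0.51) or KO replicate 2, Mapk14 without either KO library, and Map2k6 without KO replicate 1. In a fit of the 4 treated libraries alone none of the 3 was called (adjusted p = 0.142, 0.0937 and 0.0969 for Map2k7, Mapk14 and Map2k6), and with all libraries thinned to the smallest total Map2k7 (0.0569) and Map2k6 (0.0663) were not. In a fit of the 4 control libraries alone Elk3 (0.0566), Map2k1 (0.105) and Rps6ka1 (0.0762) were not called either. Between the untreated genotypes none was called by edgeR (1.83% of all genes) and 1 by DESeq2 (428 of 13028 genes). Of the 24 genes, 3 had an unadjusted p below 0.05, where 14.9% of all genes had.

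Among the 21 tested AP-1 targets, 3 rose in control cells and 5 in KO cells, and none fell in either, where 4.69% and 4.25% of all genes were called higher. The median log2 fold changes were 1.00 and 1.17, beside 0.02 and 0.00 over all genes. Among those called, Plau, the urokinase, rose by 2.03 ± 0.36 in control cells (adjusted p = 0.011) and 2.25 ± 0.37 in KO cells (adjusted p = 0.00835), and Timp1, a metalloproteinase inhibitor, by 1.12 ± 0.18 (adjusted p = 0.00657) and 1.15 ± 0.18 (adjusted p = 0.00614). Vegfa, an angiogenic growth factor (1.93 ± 0.41, adjusted p = 0.024), and Gja1, which encodes connexin 43 (0.91 ± 0.16, adjusted p = 0.0117), were called in KO cells. Between treated KO and treated control cells Tgfb1, the ligand gene itself, was higher by 0.94 ± 0.24 (adjusted p = 0.0313) and Ezr, the membrane linker ezrin, by 0.55 ± 0.16 (adjusted p = 0.0438). These were 2 of 21 genes, a share near the 8.47% of all genes called higher. Plau, Timp1, Gja1 and Vegfa were not called without either untreated library of the genotype, and Vegfa was also not called without treated KO replicate 2, when it stood at 1.05 (adjusted p = 0.0849). Tgfb1 and Ezr were not called without treated control replicate 2 or treated KO replicate 2, after thinning (adjusted p = 0.101 and 0.0543) or in a fit of the 4 treated libraries alone (adjusted p = 0.107 and 0.135). Between the untreated genotypes none was called by edgeR (1.83% of all genes), and 2 of 21 had an unadjusted p below 0.05, where 14.9% of all genes had.

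Across the 8 libraries the members followed different courses, described here by Pearson's r of log2 CPM over the 8 libraries, which share treatment and genotype. Fosl2 and Junb had r = 0.972, Jun and Atf3 0.957, and Atf3 and Maff 0.896, whereas Fosl2 and Fosl1 had 0.273. Jund had values between -0.233 and 0.19 with every member except Fosl1 (0.572). The non-members most like each gene were Fgd3 (0.982) and Trib1 (0.979) for Fos, Smurf1 (0.992) for Fosb, Casc3 (0.992) and Dusp3 (0.977) for Fosl1, and Tusc5 (0.994) and Tmcc3 (0.992) for Fosl2. For the Jun genes they were Itprip (0.983) and Zyx (0.979) for Jun, Mfhas1 (0.994) and Nipal1 (0.99) for Junb, and Nagk (0.983) and Creld1 (0.983) for Jund. Atf3 was most like Ccl7 (0.997), a chemokine gene, and Tnfaip3 (0.988), which encodes the ubiquitin-editing enzyme A20. Maff was most like Relb (0.995), an NF-κB subunit gene, and Mmp12 (0.995), a macrophage elastase gene.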

How the data were processed

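NMuMG RNA-seq was analysed from 1 deposited table of raw counts per gene, 8 libraries in 4 groups of 2. The study's methods name alignment with subjunc and removal of duplicates, while the submitters' processing notes name HISAT2, limma and mm10; the gene identifiers and exon lengths used here are those of GENCODE vM1 (mm9), which matched all 37310 rows. Which program counted the reads, and whether by strand, is not given in the sources used here. Members, gene lists and tests were chosen with earlier results of these data known. Named genes were all members, the called genes of 3 lists (at most 8 per comparison) and the 2 genes most correlated with each member. Some genes that this rule selects are not reported here.

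Genes were filtered with filterByExpr (minimum count 10), scaled by TMM and fitted over the 4 groups with the quasi-likelihood test of edgeR 4.0.16 in R 4.3.3, with Benjamini-Hochberg adjustment. The fit left 4 residual degrees of freedom. Log2 CPM used a prior count of 2. A standard error is the log2 fold change divided by the square root of the F statistic. The fit was tested on simulated data with known changes. In the library with the fewest counts, 3 counts correspond to 0.66 CPM. Alternatives were DESeq2 1.42.0, limma-voom 3.58.1, RLE factors, other filters, a replicate block, thinning, separate fits and leaving out each library. Promoter sequences came from RefSeq (GRCm38.p6), and no coordinates were converted between builds.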

Additional observations from a re-analysis of the deposited data

How the results depend on the processing

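The numbers of AP-1 members called were 2 (TGF-β in control cells), 4 (TGF-β in KO cells), 0 (KO against control, untreated), 1 (KO against control, treated) and 0 (difference of the responses). Keeping genes with low counts gave 6, 8, 1, 6 and 1, where 2021, 1832, 756, 2823 and 211 of 20463 genes were called. Fitting only the 4 libraries of a comparison gave 4 in control cells, 1 between the untreated genotypes and 0 between the treated ones. These fits called 483, 797 and 402 of 13028 genes. In KO cells Fos lost its call in such a fit. DESeq2 gave 2 between the treated genotypes (2172 of all genes), and limma-voom gave 2 in KO cells (786 of all genes). With 1 library left out at a time the ranges were 0 to 4, 1 to 6, 0 to 0, 0 to 3 and 0 to 0. Over all alternatives the number of all genes called ran from 139 to 2021 in control cells (1194 as reported), 136 to 1832 in KO cells (889), 41 to 797 untreated (238), 402 to 2823 treated (1959) and 0 to 211 for the difference of the responses (0). The calls of the 3 other lists ran from 0 or 1 up to 15. The causes were not tested.

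Signs turned only for log2 fold changes that had not passed the test. limma-voom gave 0.0702 for Fosb (untreated genotypes), -0.27 for Fosl1 (TGF-β in control cells) and -0.12 for Atf3 (difference of the responses). Thinning gave -0.0374 for Fosl1 (TGF-β in control cells) and -0.0277 for Maff (treated genotypes), for which a minimum mean count of 10 gave -0.00191. With 1 library left out, the changed signs fell within these ranges. For TGF-β in control cells they were -1.45 to 0.83 (Fosl1) and -0.81 to 0.12 (Jund), and in KO cells -0.91 to 1.81 (Fosl1). Between the untreated genotypes they were -0.24 to 0.71 (Fos), -0.92 to 0.95 (Fosb), -0.0187 to 0.22 (Fosl1) and -0.22 to 0.0152 (Fosl2). Between the treated genotypes they were -0.0649 to 2.30 (Fosb), -0.93 to 2.55 (Fosl1), -0.90 to 1.32 (Jun), -1.53 to 0.50 (Atf3) and -1.71 to 1.79 (Maff). For the difference of the responses they were -0.0947 to 1.92 (Fos), -1.02 to 2.46 (Fosl1), -0.33 to 1.88 (Jun), -0.0088 to 1.16 (Junb), -0.54 to 0.38 (Jund), -1.19 to 0.83 (Atf3) and -1.86 to 1.63 (Maff).

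With the replicate number as a block, 2, 3, 0, 1 and 0 members were called, where 831, 676, 150, 1490 and 0 of all genes were. Jun in KO cells lost its call (2.68, adjusted p = 0.0832), as did Map2k7 (0.78, adjusted p = 0.0632) and Ezr (0.56, adjusted p = 0.0632) between the treated genotypes. Same-numbered libraries deviated with r = 0.297, -0.0095, 0.0967 and -0.474 in the first 4 comparisons. These mixed values do not settle whether the numbers pair the libraries, and the labels do not say. For the treated genotypes an exchanged pairing, chosen after seeing the data, called 1 member and 2809 genes, against 1490 genes with the labelled pairing. Depth limits Fosb most, at 1 to 4 counts in each untreated library.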
